A study of Mus musculus with 12 samples.

Results

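Genes for collagens and for other extracellular matrix products of fibroblasts were examined in the mouse prostate. The set was drawn up by name, with earlier results of these data known, so its counts of calls are no independent test. It holds 44 genes: 22 collagen chains, proteoglycans, elastic fibre and cross-linking genes, matrix glycoproteins and the receptors for platelet-derived growth factor (PDGF). Each was read by its brightest probe set among those annotated to 1 symbol. Of these, 43 were measured, among 18194 genes in all. Fbn1 had no probe set with a single symbol and was not analysed here.

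Total RNA came from prostate tissue of mice aged 16 weeks and was hybridised to single-colour Affymetrix arrays. The 4 groups, with 3 arrays each, were ventral prostate with Med1 knock out (KO_VP), wild-type ventral prostate (WT_VP), lateral prostate with Med1 knock out (KO_LP) and wild-type lateral prostate (WT_LP). Med1 encodes a subunit of Mediator, a complex through which transcription factors act on RNA polymerase II. No source used here gives the strain, the deleted part of Med1 or any promoter or Cre driver, and which cells of the lobes lost the gene is therefore unknown. The labels do not state whether replicates are separate mice, and p-values measure the spread between these arrays, which may be technical.

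Collagens are trimeric proteins. Fibrillar collagens form the cables of connective tissue, type VI and fibril-associated collagens link those cables to their surroundings, and type IV collagens form the sheet under epithelia. In the prostate, glands are wrapped in a thin stroma of smooth muscle cells and fibroblasts, and both of these cell types make matrix. Fibroblasts supply most fibrillar collagen and the small leucine-rich proteoglycans that control how fibrils assemble.

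Array medians were 6.39 to 6.43 log2 units in ventral and 6.05 to 6.06 in lateral arrays, and arrays of a group correlated at 0.992 to 0.996. The targeted gene, in log2 units, differed by -0.57 ± 0.12 (SE; limma adjusted p = 0.0119) in ventral knockout against ventral wild type. It was at -0.13 (limma adjusted p = 0.622) in the lateral comparison, where the arrays overlapped and 4 of 7 Med1 probe sets were higher and 3 lower, so those arrays are called labelled knockout here. The 2 Med1 effects did not differ at the threshold (-0.44, limma adjusted p = 0.136). Whether the Med1 probe sets lie in the deleted part is unknown. A pair of arrays stood apart from their own groups in 6 measured genes of the seminal vesicle, a neighbouring gland whose tissue can be carried along in dissection. The summed linear signal of these genes was 1703 in KO_LP replicate 3, against 8687 and 9236 in the other KO_LP arrays. It was 788.4 in WT_VP replicate 3, against 383.0 and 401.1 in the other WT_VP arrays. In WT_LP arrays it was 38920 to 41100, so every KO_LP array lay below wild type, and leaving out 1 array does not remove this difference. Its part in the lateral matrix differences was not tested.

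More matrix genes were higher than lower in the ventral knockout, and more were lower than higher in the lateral arrays labelled knockout. In the ventral lobe 20 of 43 were higher in knockout and 2 were lower at a limma adjusted p under 0.05, where 5.88% of all genes were called higher and 3.20% lower. In the lateral lobe 1 was higher and 9 were lower in the arrays labelled knockout, against 1.62% higher and 3.42% lower among all genes. The median log2 difference over the 43 genes was 0.36 for the ventral comparison and -0.20 for the lateral one, while the medians of all genes were -0.020 and -0.0025. With quantile normalization over 12 arrays the member medians were 0.334 and -0.190. In the same arrays 9 of 15 smooth muscle marker genes were higher in the ventral and 7 lower in the lateral comparison, and their part in the matrix differences was not tested. In tissue RNA, more or fewer cells of a type and more or less RNA per cell cannot be told apart.

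All 3 ventral knockout arrays lay above all 3 wild-type arrays for 25 genes and below them for 3, and these patterns held for 14.9% and 14.6% of all genes. In the lateral lobe the labelled knockout arrays lay above wild type for 4 genes and below for 22, against 11.2% and 15.7% of all genes. Without WT_VP replicate 3 and KO_LP replicate 3, a choice made after seeing the data, 13 genes were called higher in the ventral comparison and 5 lower in the lateral one. The ventral count of higher genes was also 11 without WT_VP replicate 2 and 13 without either KO_VP replicate 1 or KO_VP replicate 3. The lateral count of lower genes was 3 without WT_LP replicate 3, 4 without KO_LP replicate 2 and 5 without either WT_LP replicate 1 or KO_LP replicate 3.

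**Figure D1:**
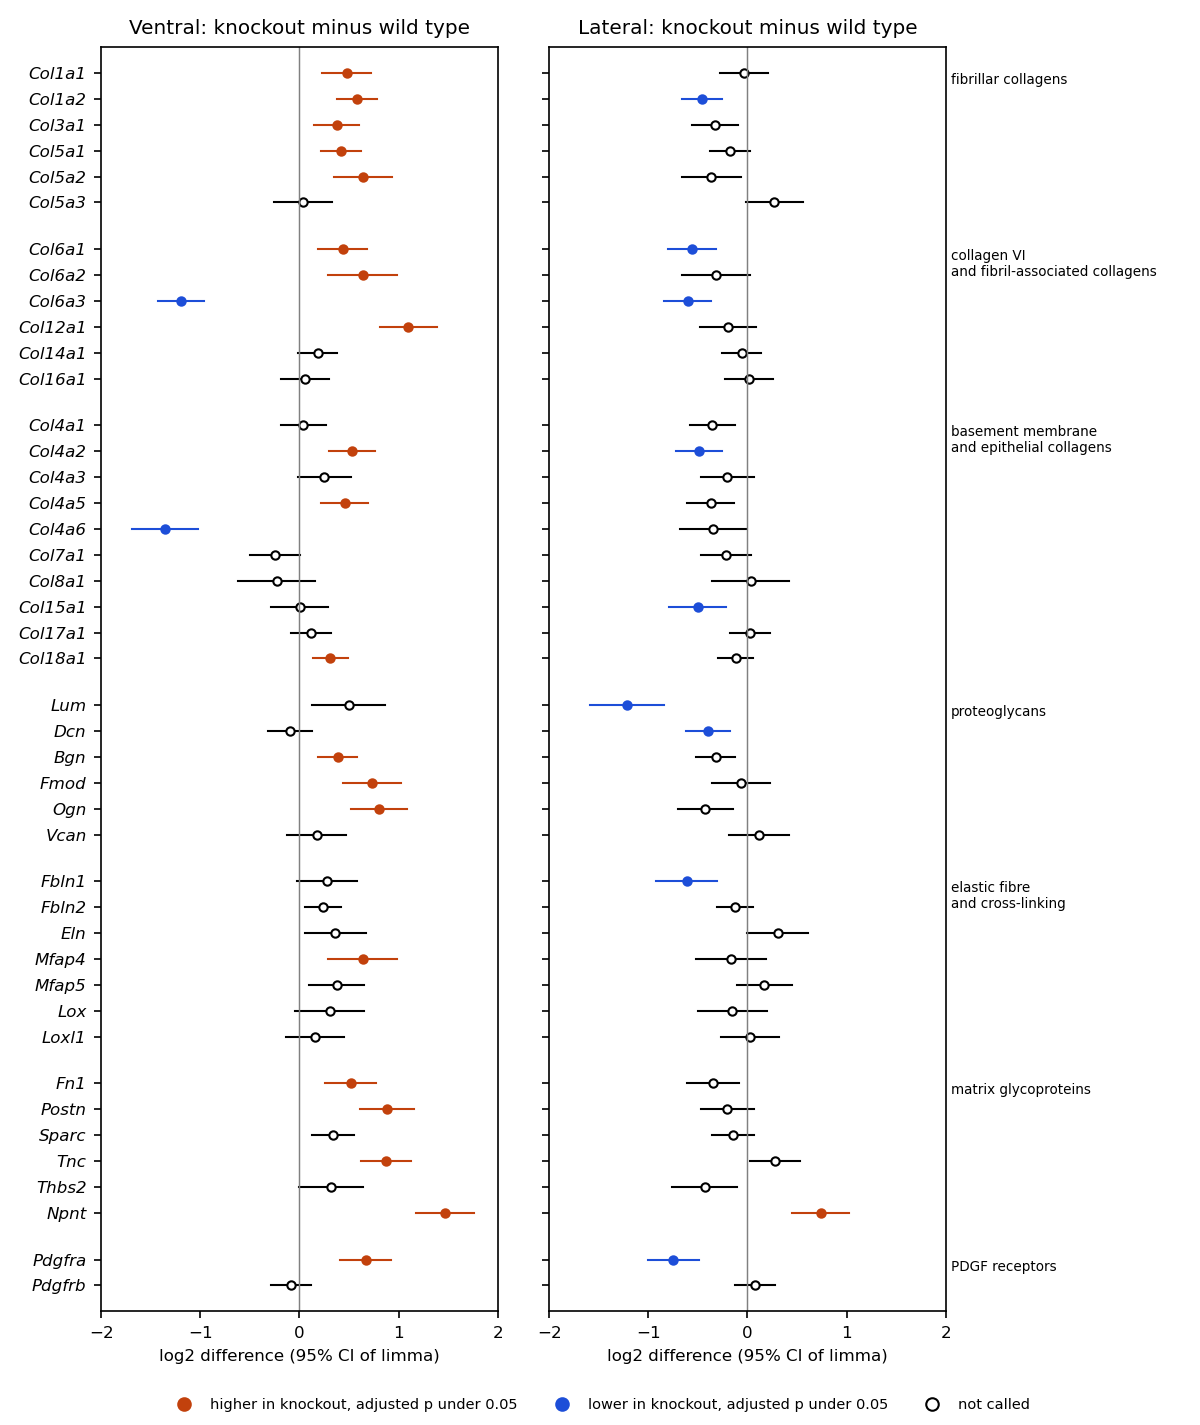
Log2 differences between knockout and wild type for each of the 43 genes in the ventral (left) and lateral (right) lobe, with 95% confidence intervals from limma, grouped by role; filled red points are called higher, filled blue points lower and open points not called. Ventral points lie mostly right of 0 and lateral points mostly left, with Col6a3 and Col4a6 far left in the ventral panel and Npnt right of 0 in both.

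Fibrillar collagens were higher in the ventral knockout. Of 6 chains 5 rose and 0 fell, with a median difference of 0.45, and in the lateral lobe 1 fell and 0 rose, with a median of -0.25. Over all genes 5.88% were called higher and 3.20% lower in the ventral lobe, and 1.62% and 3.42% in the lateral lobe. Type I collagen is the main fibril of connective tissue. Its chain Col1a2 had 11.18, 10.98 and 11.09 log2 units in KO_VP arrays, against 10.60, 10.31 and 10.59 in WT_VP arrays, and 10.20, 10.14 and 10.16 in KO_LP arrays, against 10.63, 10.57 and 10.70 in WT_LP arrays. KO_VP arrays were thus high and the lateral arrays labelled knockout low, with no overlap in either lobe. The ventral difference was 0.58 ± 0.094 (SE; limma adjusted p = 0.00170) and the lateral one -0.46 ± 0.094 (SE; limma adjusted p = 0.0104). The difference between these 2 genotype effects, ventral minus lateral, was 1.04 ± 0.13 (SE; limma adjusted p = 0.000299).

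The other type I chain, Col1a1, had 10.25, 10.01 and 10.16 in KO_VP arrays, against 9.68, 9.52 and 9.79 in WT_VP arrays, a difference of 0.48 ± 0.11 (SE; limma adjusted p = 0.0189). Its lateral difference was -0.038 (limma adjusted p = 0.893), with overlapping arrays, and its 2 genotype effects did not differ at the threshold (0.51, limma adjusted p = 0.0613). Col3a1, which mixes with type I in pliable tissue, rose by 0.38 ± 0.11 (SE; limma adjusted p = 0.0427) in the ventral lobe. The type V chains, which start and thin fibrils, split: Col5a1 rose by 0.42 ± 0.095 (SE; limma adjusted p = 0.0138) and Col5a2 by 0.64 ± 0.14 (SE; limma adjusted p = 0.010), whereas Col5a3 was at 0.037 (limma adjusted p = 0.896), with its arrays overlapping. Lateral values of Col3a1, Col5a1 and Col5a2 were -0.33, -0.17 and -0.36, none of them called. Col3a1 and Col5a2 are neighbours on chromosome 1.

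Some ventral calls for fibrillar collagens were lost when 1 array was left out. For Col1a1 the limma adjusted p was 0.0526 without WT_VP replicate 1, 0.0724 without WT_VP replicate 2, 0.0684 without KO_VP replicate 1 and 0.0555 without KO_VP replicate 3. For Col5a1 it was 0.0513 without WT_VP replicate 1. The Col3a1 call was lost without any of 9 arrays (all but WT_VP replicate 1, KO_LP replicate 1 and KO_LP replicate 2), with limma adjusted p up to 0.143. Lateral Col1a2 was at 0.0551 without WT_LP replicate 3 and at 0.157 as the mean of its 3 probe sets. Ventral Col1a2 and Col5a2 kept their calls with each of the 12 arrays left out, but Col5a2 was at 0.0578 with the 6 ventral arrays alone.

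Sequences are shown for genes on which the contrasts between lobes or neighbours rest, as the 250 bases before the RefSeq start site in mouse build GRCm38.p6. RefSeq windows matched 29 of the 43 genes, 35 windows in all out of 32851. Each was searched on both strands for the TATA box TATAAA, the CCAAT box CCAAT, the GC box GGGCGG, the TEAD motif GGAATG, the androgen receptor motif AGAACA and the CArG box of serum response factor. Capitals mark the matches, and none of those printed overlap each other. The Col1a2 window (chr6:4505368-4505617, plus strand) holds 1 CCAAT match and 2 GGGCGG matches, in a gene whose genotype effects had opposite signs in the lobes.
Col1a2: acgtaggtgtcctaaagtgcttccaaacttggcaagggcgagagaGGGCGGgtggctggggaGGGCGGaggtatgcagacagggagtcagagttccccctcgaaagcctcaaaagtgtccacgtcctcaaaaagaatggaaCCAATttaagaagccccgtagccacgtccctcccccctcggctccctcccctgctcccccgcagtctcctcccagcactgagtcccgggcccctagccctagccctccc

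Over all windows of the set, GGGCGG was found in 19 of 35 (54.3%), against 32.7% of all RefSeq windows, and TATAAA in 7 of 35 (20.0%), against 12.4%. CCAAT was in 31.4% of the set's windows, against 33.8% of all, GGAATG in 11.4%, against 12.6%, and AGAACA in 8.57%, against 16.1%. The CArG box was in 0 of 35 windows and in 1.47% of all. These are counts of letters in the windows and show no binding.

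Type VI collagen, a beaded microfibril around cells, is built from chains of which 3 were measured, and the chains moved apart in the ventral knockout. Col6a3 had 8.09, 7.99 and 8.04 log2 units in KO_VP arrays, against 9.23, 9.33 and 9.13 in WT_VP arrays. It had 7.25, 6.88 and 6.98 in KO_LP arrays, against 7.72, 7.46 and 7.74 in WT_LP arrays. KO_VP arrays and the lateral arrays labelled knockout were both low, without overlap. Col6a3 fell by 1.19 ± 0.11 in the ventral lobe (SE; limma adjusted p = 2.37e-05), to 0.437 of the wild-type signal. Laterally it fell by 0.60 ± 0.11 (SE; limma adjusted p = 0.00481), and the effects differed by -0.59 (limma adjusted p = 0.0296) between lobes.

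Its partner chains went the other way in the ventral lobe. Col6a1 had 9.45, 9.12 and 9.28 in KO_VP arrays, against 8.93, 8.70 and 8.91 in WT_VP arrays, and rose by 0.44 ± 0.11 (SE; limma adjusted p = 0.0296). Col6a2 rose by 0.64 ± 0.16 (SE; limma adjusted p = 0.0249). In the lateral lobe Col6a1 was lower, at -0.56 (limma adjusted p = 0.0105), and Col6a2 was at -0.32 (limma adjusted p = 0.298). Col6a1 and Col6a2 lie side by side on chromosome 10, while Col6a3 is on chromosome 1. Col6a1 and Col6a3 have 1 single-symbol probe set each, so no second reading of either was at hand. The Col6a3 window (chr1:90843972-90844221, minus strand), shown because this chain fell in both lobes, holds none of the searched motifs.
Col6a3: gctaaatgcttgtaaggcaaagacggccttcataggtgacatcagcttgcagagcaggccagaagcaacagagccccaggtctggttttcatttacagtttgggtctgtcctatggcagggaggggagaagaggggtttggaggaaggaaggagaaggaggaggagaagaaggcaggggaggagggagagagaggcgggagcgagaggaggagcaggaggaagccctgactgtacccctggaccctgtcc

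Among fibril-associated collagens, Col12a1, which coats fibrils in tissue under strain, rose 2.14-fold in the ventral knockout. Its signal was 8.03, 7.99 and 8.48 in KO_VP arrays, against 7.23, 6.97 and 7.01 in WT_VP arrays, a difference of 1.10 ± 0.13 (SE; limma adjusted p = 0.000189). KO_VP replicate 3 was the highest, and all 4 of its probe sets were called higher. Lateral Col12a1 was at -0.20 (limma adjusted p = 0.449) with overlapping arrays, and the 2 effects differed by 1.30 ± 0.19 (SE; limma adjusted p = 0.000725). Col14a1 and Col16a1, its relatives, were not called in either lobe, at 0.18 and 0.059 ventral and -0.058 and 0.012 lateral. The other 2 Col14a1 probe sets, both dimmer, were called higher in the ventral knockout (0.78 and 0.81, limma adjusted p = 0.0203 and 0.0223).

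In all, 3 of these 6 genes rose and 1 fell in the ventral lobe, and 2 fell in the lateral lobe. The shares over all genes were 5.88% higher and 3.20% lower in the ventral lobe, and 3.42% lower in the lateral lobe. The ventral Col6a1 call was lost without WT_VP replicate 1, 2 or 3 or KO_VP replicate 1 or 3 (limma adjusted p of 0.051, 0.104, 0.0612, 0.102 and 0.0711). The ventral Col6a2 call was lost without WT_VP replicate 1 or 2 or KO_VP replicate 1 or 3 (0.0524, 0.0901, 0.0601 and 0.0946). With the 6 ventral arrays alone limma's adjusted p was 0.0637 for Col6a1 and 0.0757 for Col6a2. The lateral Col6a1 call was lost without WT_LP replicate 3 (0.059) or KO_LP replicate 2 (0.0591).

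The network-forming collagens of basement membranes also parted in the ventral knockout. Type IV chains are encoded in head-to-head pairs, and Col4a5 and Col4a6 share such a stretch on the X chromosome. Col4a5 had 7.56, 7.66 and 7.78 log2 units in KO_VP arrays, against 7.25, 7.03 and 7.34 in WT_VP arrays. Col4a6 had 6.35, 6.15 and 6.17 in KO_VP arrays, against 7.61, 7.14 and 7.98 in WT_VP arrays. Ventral knockout arrays were therefore all high for Col4a5 and all low for Col4a6. The differences were 0.46 ± 0.11 (SE; limma adjusted p = 0.0194) for Col4a5 and -1.36 ± 0.15 (SE; limma adjusted p = 0.000119) for Col4a6, whose signal was 0.391 of that in wild type.

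Lateral signal of Col4a6 was 11.30, 11.26 and 11.41 in KO_LP arrays, against 11.65, 11.73 and 11.63 in WT_LP arrays. In wild type the difference was -4.09 log2 units, ventral minus lateral, the largest lobe difference of the set. Its lateral genotype difference of -0.35 was not called (limma adjusted p = 0.227), although the arrays did not overlap, and neither was that of Col4a5, -0.37 (0.0735). The genotype effects differed between lobes by -1.005 (limma adjusted p = 0.0106) for Col4a6 and 0.83 (limma adjusted p = 0.00463) for Col4a5. The second Col4a6 probe set was at -0.58 in the ventral comparison and was not called (limma adjusted p = 0.286).

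The start sites of Col4a5 and Col4a6 lie 1343 bases apart. Their windows, shown because the pair moved in opposite directions in the ventral knockout, are Col4a5 at chrX:141475169-141475418, plus strand, with 1 CCAAT and 1 GGGCGG match, and Col4a6 at chrX:141474077-141474326, minus strand, with 1 GGGCGG match on the strand opposite to the gene. Each window reads in the direction of its gene.
Col4a5: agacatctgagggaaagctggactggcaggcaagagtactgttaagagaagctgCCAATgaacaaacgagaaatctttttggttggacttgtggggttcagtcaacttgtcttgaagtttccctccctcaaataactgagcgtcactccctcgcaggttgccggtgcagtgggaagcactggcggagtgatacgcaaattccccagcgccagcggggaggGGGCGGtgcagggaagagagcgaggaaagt
Col4a6: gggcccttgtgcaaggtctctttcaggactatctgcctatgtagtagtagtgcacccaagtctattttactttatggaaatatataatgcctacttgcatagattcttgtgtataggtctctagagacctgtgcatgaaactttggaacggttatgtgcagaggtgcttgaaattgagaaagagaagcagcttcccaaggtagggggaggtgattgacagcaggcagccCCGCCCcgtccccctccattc

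Col4a1 and Col4a2 are the common chains of every basement membrane and a head-to-head pair on chromosome 8. Col4a2 had 8.56, 8.30 and 8.26 in KO_VP arrays, against 7.91, 7.67 and 7.95 in WT_VP arrays (0.53 ± 0.11 SE, limma adjusted p = 0.00789). It had 8.52, 8.29 and 8.39 in KO_LP arrays, against 8.92, 8.79 and 8.96 in WT_LP arrays (-0.49 ± 0.11 SE, limma adjusted p = 0.0172). For Col4a2, KO_VP arrays lay above wild type and lateral arrays labelled knockout below it. Col4a1 was at 0.037 (limma adjusted p = 0.865) in the ventral lobe, with overlap, and at -0.36 (limma adjusted p = 0.0720) in the lateral lobe, where the arrays did not overlap. Col4a3 was not called, at 0.25 and -0.20.

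Of the remaining collagens of this role, Col18a1, the source of endostatin, rose by 0.31 ± 0.082 (SE; limma adjusted p = 0.0320) in the ventral lobe, and Col15a1, its close relative at the border of basement membranes, fell in the lateral lobe (-0.50 ± 0.13 SE, limma adjusted p = 0.0459). Col7a1, the anchoring fibril chain, and Col17a1, a transmembrane collagen of basal epithelial cells, were not called, with ventral values of -0.24 and 0.12 and lateral values of -0.21 and 0.021. Col8a1, a short-chain network collagen, was at -0.23 (limma adjusted p = 0.468) in its brightest probe set. Its 2 dimmer probe sets were called higher in the ventral knockout, at 1.64 and 0.64 (limma adjusted p = 2.72e-05 and 0.016), so the direction for Col8a1 depends on the probe set.

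Among the 10 basement membrane and epithelial collagens 3 rose and 1 fell in the ventral lobe, and 2 fell in the lateral lobe. All genes were called higher at 5.88% and lower at 3.20% in the ventral lobe, and lower at 3.42% in the lateral lobe. Limma's adjusted p for ventral Col4a5 was 0.0761 without WT_VP replicate 2 and 0.0721 without KO_VP replicate 3. Ventral Col18a1 was lost without any ventral array but KO_VP replicate 2 (0.0595 to 0.108) and at 0.0899 with the ventral arrays alone. Lateral Col4a2 was lost without WT_LP replicate 1 (0.0586), WT_LP replicate 3 (0.0786), KO_LP replicate 2 (0.083) or KO_LP replicate 3 (0.0556). Lateral Col15a1 was lost without any of 9 arrays (all but WT_VP replicate 1, WT_VP replicate 3 and KO_LP replicate 1), with limma adjusted p up to 0.189.

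**Figure D2:**
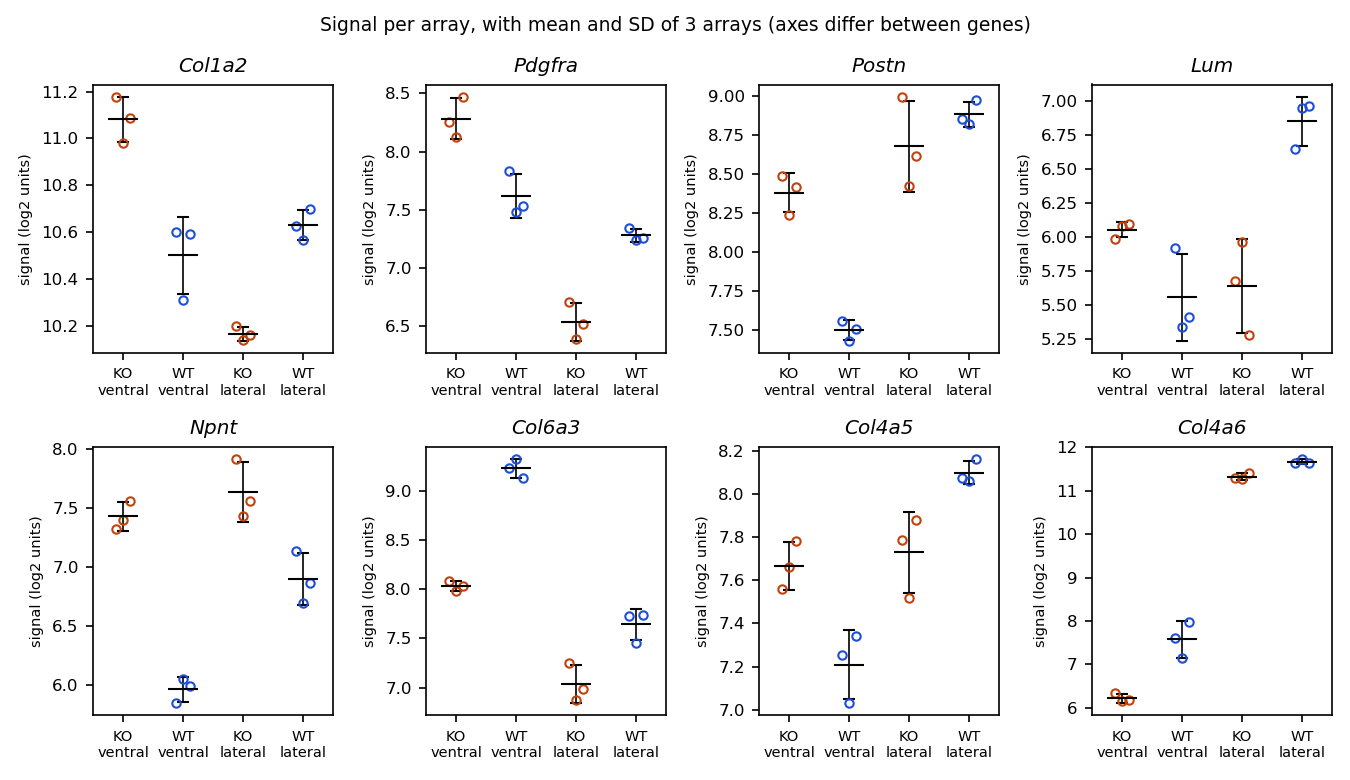
Signal in log2 units on each array for 8 genes, with open circles for arrays, black bars for group means and whiskers for the SD of 3 arrays; arrays labelled knockout are red and wild type blue, and axes differ between genes. Col1a2 and Pdgfra are high in KO ventral and low in KO lateral arrays, Npnt is high and Col6a3 low in both, and Col4a5 and Col4a6 part in the ventral lobe.

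Of 6 proteoglycans 3 rose in the ventral lobe and 2 fell in the lateral lobe, against 5.88% and 3.42% of all genes. Lumican (Lum), a keratan sulfate proteoglycan that spaces fibrils, had the largest lateral fall of the set. It had 5.67, 5.96 and 5.27 log2 units in KO_LP arrays, against 6.64, 6.95 and 6.96 in WT_LP arrays, and 5.99, 6.08 and 6.09 in KO_VP arrays, against 5.92, 5.33 and 5.41 in WT_VP arrays. KO_LP replicate 3 was the lowest lateral array. The lateral difference was -1.21 ± 0.17 (SE; limma adjusted p = 0.000735), the ventral one 0.50 ± 0.17 (SE; limma adjusted p = 0.0882), which missed the threshold, and the effects differed by 1.71 ± 0.24 (SE; limma adjusted p = 0.000643). Decorin (Dcn), its neighbour on chromosome 10, was at -0.095 (limma adjusted p = 0.617) in the ventral lobe and fell in the lateral lobe (-0.39 ± 0.10 SE, limma adjusted p = 0.0428). Of the 2 Dcn probe sets 1 was higher and 1 lower laterally, with 0 called when each was fitted on its own.

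Osteoglycin (Ogn) and fibromodulin (Fmod), both of the same leucine-rich family, rose in the ventral lobe by 0.80 ± 0.13 (SE; limma adjusted p = 0.00176) and 0.73 ± 0.13 (SE; limma adjusted p = 0.00410). Ogn had 9.72, 9.58 and 9.98 in KO_VP arrays, against 9.18, 8.73 and 8.96 in WT_VP arrays. Fmod had 11.40, 11.26 and 11.82 in KO_VP arrays, against 10.63, 10.71 and 10.95 in WT_VP arrays, read by a probe set of a type that can match other transcripts. All 6 Fmod probe sets were higher in the ventral knockout and 5 were called. Biglycan (Bgn) rose by 0.39 ± 0.093 (SE; limma adjusted p = 0.0194). Lateral Ogn was at -0.42 (limma adjusted p = 0.0827), Fmod at -0.066 (limma adjusted p = 0.836) and Bgn at -0.32 (limma adjusted p = 0.0646).

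Versican (Vcan), a large chondroitin sulfate proteoglycan, was not called in either lobe (0.17 and 0.12), and 1 of its 8 probe sets was called higher in the ventral lobe. The ventral Bgn call was lost without WT_VP replicate 2 (limma adjusted p = 0.0639), WT_VP replicate 3 (0.0642) or KO_VP replicate 3 (0.0579). The lateral Dcn call was lost without any of 8 arrays (all but WT_VP replicate 2, WT_VP replicate 3, KO_VP replicate 3 and KO_LP replicate 1; limma adjusted p up to 0.167) and at 0.0609 with the 6 lateral arrays alone. Ventral Ogn and Fmod and lateral Lum kept their calls with each of the 12 arrays left out.

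Of the elastic fibre and cross-linking genes measured, 1 of 7 was called in each lobe. Over all genes 5.88% were called higher in the ventral and 3.42% lower in the lateral lobe, so a single call in 7 says little. Mfap4, a fibrinogen-related protein on elastic fibres, rose in the ventral lobe. It had 9.06, 8.76 and 9.10 in KO_VP arrays, against 8.45, 8.06 and 8.50 in WT_VP arrays (0.64 ± 0.16 SE, limma adjusted p = 0.0270). Fibulin 1 (Fbln1), a glycoprotein that binds elastin and fibronectin, fell in the lateral lobe. It had 7.98, 8.13 and 7.95 in KO_LP arrays, against 8.67, 8.62 and 8.62 in WT_LP arrays (-0.61 ± 0.14 SE, limma adjusted p = 0.0229), and its ventral value was 0.28 (limma adjusted p = 0.245). The arrays did not overlap in either of these 2 called comparisons.

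The other 5 genes of this role were not called in either lobe. Ventral differences were 0.24 for Fbln2, 0.36 for elastin (Eln), 0.38 for Mfap5, and 0.31 and 0.16 for the cross-linking oxidases Lox and Loxl1. Their lateral differences ran between -0.15 and 0.30. A second Lox probe set was called higher in the ventral knockout (0.64, limma adjusted p = 0.0179). The ventral Mfap4 call was lost without WT_VP replicate 2 (limma adjusted p = 0.10), KO_VP replicate 1 (0.0768) or KO_VP replicate 3 (0.0992). Lateral Fbln1 was lost without any 1 of the 6 lateral arrays (0.0503 to 0.0828) and as the mean of its 3 probe sets (0.151).

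Matrix glycoproteins were higher in the ventral knockout. Of 6 genes 4 rose in the ventral lobe and 0 fell, with a median of 0.70. Nephronectin (Npnt), a basement membrane ligand of an integrin that holds the Itga8 chain, had the largest ventral difference of the set and was the only gene of the 43 called higher in the lateral comparison. Npnt had 7.32, 7.40 and 7.56 log2 units in KO_VP arrays, against 5.85, 6.05 and 5.99 in WT_VP arrays. It had 7.92, 7.43 and 7.56 in KO_LP arrays, against 7.13, 6.70 and 6.86 in WT_LP arrays. No wild-type array reached a KO_VP array or, in the lateral lobe, an array labelled knockout. The differences were 1.47 ± 0.13 (SE; limma adjusted p = 2.37e-05) in the ventral lobe, a 2.77-fold rise, and 0.74 ± 0.13 (SE; limma adjusted p = 0.00505) in the lateral lobe, a 1.67-fold rise.

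Its 5 probe sets were all higher in both lobes, with 3 called in the ventral and 2 in the lateral comparison. They parted on the difference between lobes, which was 0.73 (limma adjusted p = 0.0290) in the brightest probe set but positive in 2 and negative in 3 of the 5. As the mean of probe sets that difference was 0.24 (limma adjusted p = 0.163), and its call was lost without any of 7 arrays: WT_VP replicate 1 or 3, KO_VP replicate 3, WT_LP replicate 1 or 3, or KO_LP replicate 2 or 3. The Npnt window (chr3:132950292-132950541, minus strand), shown because the gene rose in both lobes, holds 3 GGGCGG matches, 2 of them on the strand opposite to the gene.
Npnt: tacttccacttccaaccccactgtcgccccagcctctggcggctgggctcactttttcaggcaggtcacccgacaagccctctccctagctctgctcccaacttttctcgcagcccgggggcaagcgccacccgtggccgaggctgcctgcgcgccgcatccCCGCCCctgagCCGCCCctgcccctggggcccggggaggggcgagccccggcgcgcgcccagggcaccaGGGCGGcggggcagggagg

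Periostin (Postn) and tenascin C (Tnc), matricellular proteins of remodelling tissue, also rose in the ventral knockout. Postn had 8.49, 8.24 and 8.42 in KO_VP arrays, against 7.56, 7.43 and 7.50 in WT_VP arrays (0.88 ± 0.12 SE, limma adjusted p = 0.000631). Tnc had 7.09, 7.01 and 6.69 in KO_VP arrays, against 6.23, 5.98 and 5.96 in WT_VP arrays (0.88 ± 0.12 SE, limma adjusted p = 0.000410). Both were without overlap. Lateral Postn was at -0.20 (limma adjusted p = 0.404) and Tnc at 0.28 (limma adjusted p = 0.209), the lateral Tnc arrays labelled knockout lying above wild type. Fibronectin (Fn1), which binds integrins and collagen, rose by 0.52 ± 0.12 (SE; limma adjusted p = 0.0172) in the ventral lobe and was at -0.35 (limma adjusted p = 0.122) in the lateral lobe.

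Sparc, a collagen-binding protein, was just outside the threshold in the ventral lobe at 0.34 (limma adjusted p = 0.0503), without overlap, and Thbs2, an inhibitor of vessel growth, was at 0.32 (limma adjusted p = 0.203). Thbs2 signal in KO_LP arrays (4.20 on average) was below the lower quartile of all probe sets, 4.52 in lateral arrays. Its lateral difference of -0.43 was not called (limma adjusted p = 0.124), and the size of that difference is uncertain. The difference between the lobes' effects was called positive for all 6 glycoproteins, against 6.51% of all genes. As the mean of probe sets, however, the call was lost for Sparc, Tnc, Thbs2 and Npnt (limma adjusted p = 0.162, 0.344, 0.112 and 0.163). Those 4 also lost it with 1 array left out, for 11, 9, 9 and 7 of the 12 arrays, while Postn and Fn1 kept it throughout. The ventral Fn1 call was lost without WT_VP replicate 2 or KO_VP replicate 1, with a limma adjusted p of 0.0682 in both cases. Ventral Npnt, Postn and Tnc and lateral Npnt kept their calls with each of the 12 arrays left out.

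The PDGF receptors are tyrosine kinases, of which Pdgfra marks fibroblasts and Pdgfrb marks pericytes and smooth muscle as well. Pdgfra had 8.25, 8.12 and 8.47 log2 units in KO_VP arrays, against 7.83, 7.48 and 7.53 in WT_VP arrays. It had 6.70, 6.38 and 6.51 in KO_LP arrays, against 7.34, 7.24 and 7.25 in WT_LP arrays. KO_VP arrays were high and the lateral arrays labelled knockout were low, without overlap. The differences were 0.67 ± 0.12 (SE; limma adjusted p = 0.00322) and -0.75 ± 0.12 (SE; limma adjusted p = 0.00178), and they differed from each other by 1.41 ± 0.17 (SE; limma adjusted p = 0.000187). Both genotype calls held with each of the 12 arrays left out, but as the mean of its 3 probe sets lateral Pdgfra was not called (limma adjusted p = 0.168). In that lateral comparison 1 of the 3 probe sets was higher and 2 were lower. Pdgfrb was not called in either lobe, at -0.086 (limma adjusted p = 0.621) and 0.078 (limma adjusted p = 0.699).

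The Pdgfra window (chr5:75152001-75152250, plus strand), shown because its genotype effects had opposite signs in the lobes, holds none of the searched motifs.
Pdgfra: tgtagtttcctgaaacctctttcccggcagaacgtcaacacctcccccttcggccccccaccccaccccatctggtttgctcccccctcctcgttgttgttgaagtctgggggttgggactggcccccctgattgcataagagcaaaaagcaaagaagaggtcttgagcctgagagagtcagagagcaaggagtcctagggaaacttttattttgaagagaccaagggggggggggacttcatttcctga

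The test of the difference between the lobes' genotype effects called 23 of the 43 genes as higher and 2 as lower in ventral minus lateral, against 6.51% and 2.80% of all genes. The median of this difference over the 43 genes was 0.51, against -0.021 over all genes. The 4 genes called higher in the ventral and lower in the lateral comparison were Col1a2, Col6a1, Col4a2 and Pdgfra. None of the 4 kept both calls under every alternative. Lateral Col1a2 and Pdgfra were lost as the mean of probe sets, and Col6a1 and Col4a2 lost calls with single arrays left out. Of the other genes, Npnt was called higher in both lobes and Col6a3 lower in both. Both comparisons are within a lobe, so they share no arrays.

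The 12 ventral calls that held with each array left out were those of Col1a2, Col5a2, Col6a3, Col12a1, Col4a2, Col4a6, Fmod, Ogn, Postn, Tnc, Npnt and Pdgfra, of 22 calls. As the mean of all probe sets of a gene, the ventral calls of Bgn, Col18a1, Col3a1 and Col5a1 were lost (limma adjusted p = 0.0780, 0.0912, 0.0608 and 0.0972). The 4 lateral ones that held with each array left out were those of Col6a3, Lum, Npnt and Pdgfra, of 10 calls. The mean of probe sets lost the lateral calls of Col1a2, Dcn, Fbln1 and Pdgfra (0.157, 0.479, 0.151 and 0.168). Of the 33 genes with more than 1 probe set, the plot by probe set shows where readings of 1 gene part.

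**Figure D3:**
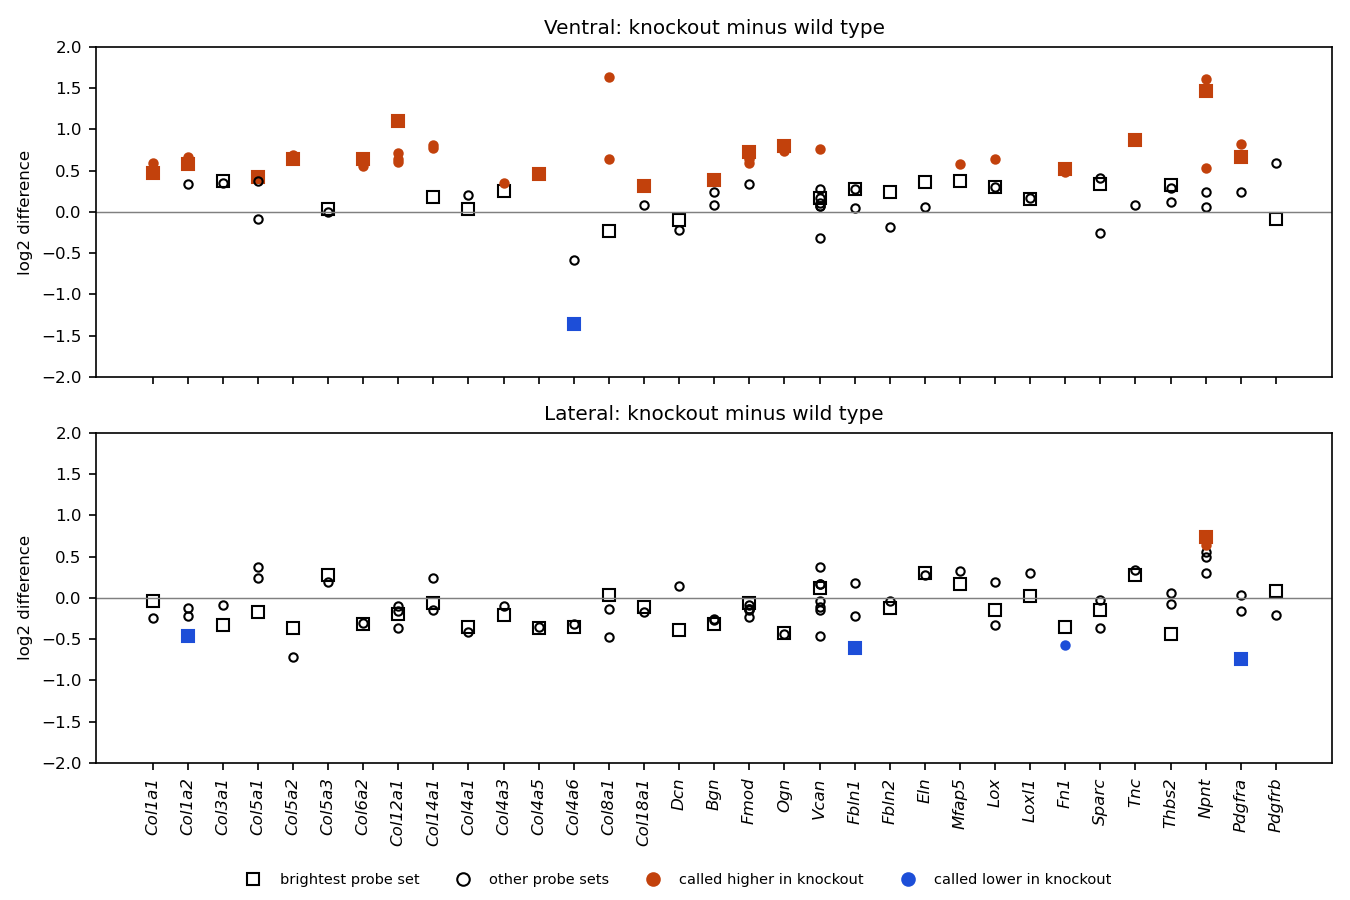
Log2 difference between knockout and wild type for every single-symbol probe set of the 33 genes that have more than 1, in the ventral (top) and lateral (bottom) lobe; squares are the brightest probe set of a gene, circles the others, and filled symbols were called. Readings have the same sign for most genes, while Col8a1 has a brightest probe set at -0.23 and a dimmer one at 1.64 in the ventral lobe.

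Between wild-type lobes the set lay lower in the ventral lobe relative to all genes. Ventral minus lateral, 14 genes were called higher and 19 lower, where 55.8% of all genes were called higher and 12.3% lower. The median difference was -0.0023 over the set and 0.34 over all genes. Lobe and normalization coincide here, since sorted values were nearly equal within a lobe and not across lobes. Quantile normalization over 12 arrays gave 6 higher and 27 lower members and median centring 8 and 23. The member medians were then -0.474 and -0.362, against -0.0486 and -0.0232 over all genes, and 32 of 43 members were negative under either scaling. Among the genes whose direction and call held under both scalings were Col6a3 (1.59), Col14a1 (1.19) and Ogn (1.01), higher in ventral wild type, and Col4a6 (-4.09), Postn (-1.39), Lum (-1.30), Col4a2 (-1.05) and Npnt (-0.94), lower there. The limma adjusted p of these 8 was at most 2.95e-05.

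Matrix also needs enzymes, proteases, signals and receptors, and these were counted in lists of genes outside the set. The lists, too, were chosen with earlier results of these data known. Among all genes 5.88% were called higher and 3.20% lower in the ventral lobe, and 1.62% and 3.42% in the lateral lobe. Of 17 ligands, receptors and matrix targets of TGF-beta and PDGF signalling, 11 rose and 0 fell in the ventral lobe, and 0 rose and 3 fell in the lateral lobe. The median differences were 0.40 and -0.14. Ccn2, a matricellular growth factor cofactor, was at 0.93 (limma adjusted p = 0.000104) in the ventral knockout, and Ccn1, its relative, at 0.59 (limma adjusted p = 0.00275). The latent TGF-beta binding proteins Ltbp1 and Ltbp2 were at 0.89 (limma adjusted p = 0.000230) and 0.72 (limma adjusted p = 0.000580). In the lateral lobe Ltbp4 (-0.46, limma adjusted p = 0.0153), the receptor Tgfbr1 (-0.45, limma adjusted p = 0.0331) and the ligand Tgfb3 (-0.40, limma adjusted p = 0.0456) fell.

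Among 15 integrins and other matrix receptors 6 rose in the ventral lobe and 2 fell in the lateral lobe, with medians of 0.12 and -0.15. The collagen receptor Ddr2 was at 0.74 (limma adjusted p = 0.00129) in the ventral and -0.62 (limma adjusted p = 0.00568) in the lateral comparison. Itga1, the alpha chain of a collagen-binding integrin, was at 0.47 (limma adjusted p = 0.00706) and -0.73 (limma adjusted p = 0.000293). Itga8, whose integrin binds nephronectin, rose in the ventral lobe (0.84, limma adjusted p = 0.00723), as did Itgb5 (0.53, limma adjusted p = 0.00369).

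Of 19 genes for collagen folding, processing and cross-linking 3 rose and 1 fell in the ventral lobe, and 0 were called in the lateral lobe, where an unadjusted p was under 0.05 for 4. Pcolce, an enhancer of procollagen cleavage, rose by 0.83 (limma adjusted p = 0.000754). The collagen chaperone Serpinh1 rose by 0.41 (limma adjusted p = 0.0208) and the oxidase Loxl3 by 0.41 (limma adjusted p = 0.0210), while the prolyl hydroxylase subunit P4ha2 was at -0.49 (limma adjusted p = 0.0304). Of 16 matrix proteases and inhibitors 2 rose in the ventral lobe, and 1 rose and 3 fell in the lateral lobe. Over all genes 5.88% rose in the ventral lobe, and 1.62% rose and 3.42% fell in the lateral lobe. The protease Adamts1 was at 0.84 (limma adjusted p = 0.000153) and -0.52 (limma adjusted p = 0.00641) in ventral and lateral comparisons, and the gelatinase Mmp2 at 0.73 (limma adjusted p = 0.0111) and -0.58 (limma adjusted p = 0.0489). The inhibitor Timp4 rose in the lateral lobe (0.70, limma adjusted p = 0.000133), and cathepsin K (Ctsk) fell there (-0.49, limma adjusted p = 0.0431).

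Of 17 laminins and other basement membrane proteins 4 rose in the ventral lobe, among them agrin (Agrn, 0.72, limma adjusted p = 0.000227), the laminin chains Lamb1 (0.84, limma adjusted p = 0.00581) and Lama2 (0.87, limma adjusted p = 0.00928), and Fras1. Fras1 rose by 1.05 (limma adjusted p = 0.0157), from low signal in WT_VP arrays, so the size of its rise is uncertain. In the lateral lobe 0 of the 17 were called by limma, and 4 had an unadjusted p under 0.05.

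Markers of other stromal cells, in lists also chosen with earlier results known, moved with the set. Over all genes 5.88% were called higher in the ventral and 3.42% lower in the lateral lobe. Of 15 smooth muscle genes 9 rose and 0 fell in the ventral lobe, with a median difference of 0.42, and 0 rose and 7 fell in the lateral lobe, with a median of -0.44. Their summed linear signal was 36360 to 41680 in KO_VP arrays, against 26680 to 31280 in WT_VP arrays, and 39290 to 47000 in KO_LP arrays, against 53500 to 56500 in WT_LP arrays. Of 10 fibroblast markers outside the set 4 rose in the ventral and 3 fell in the lateral lobe. Their sums were 4302 to 5134 in KO_VP arrays, against 3209 to 3656 in WT_VP arrays, and 2701 to 2992 in KO_LP arrays, against 3403 to 3511 in WT_LP arrays. For the 43 matrix genes the sums were 24280 to 26410 in KO_VP arrays, against 18760 to 21750 in WT_VP arrays, and 17470 to 19970 in KO_LP arrays, against 22400 to 23200 in WT_LP arrays. None of the smooth muscle or fibroblast markers had low signal in any group, meaning a group mean below the 25th percentile of probe sets.

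Luminal epithelial and endothelial markers were not called. Of 9 luminal epithelial genes, all above the low-signal mark in every group, 0 were called in either lobe by limma, with sums of 30320 to 31790 in KO_VP arrays, against 29880 to 30880 in WT_VP arrays, and 18610 to 19470 in KO_LP arrays, against 18510 to 19410 in WT_LP arrays. Of 10 endothelial genes 0 were called in either lobe. All 10 were positive in the ventral comparison, with a median of 0.14, and 4 were positive and 6 negative in the lateral one, with a median of -0.028. Ventral sums were 748.2 to 832.8 in KO_VP arrays, against 652.2 to 732.3 in WT_VP arrays. Lateral sums were 814.0 to 817.9 in KO_LP arrays, against 822.5 to 906.8 in WT_LP arrays. The endothelial sums thus did not overlap in either lobe. At an unadjusted p under 0.05, 2 luminal and 1 endothelial genes differed in the ventral lobe and the same numbers in the lateral lobe. Most basal epithelial markers lay in the direction of the set, but few were called within a lobe. Of 8 genes 7 were positive in the ventral comparison and 1 was called higher, against 5.88% of all genes. Laterally 7 were negative and 2 were called lower, against 3.42%. The medians were 0.28 and -0.26. For the difference between the lobes' effects 4 were called positive, against 6.51% of all genes, and the median was 0.58. All KO_VP arrays lay above WT_VP for 6 of the 8, and for 14.9% of all genes. Their sums were 4370 to 4412 in KO_VP arrays, against 3624 to 3744 in WT_VP arrays, and 4461 to 4717 in KO_LP arrays, against 5279 to 5630 in WT_LP arrays. The basal list includes Cav1, which stromal and fat cells also express and which was the ventral call.

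For the lists that follow, all genes were called higher at 5.88% and lower at 3.20% in the ventral lobe, and at 1.62% and 3.42% in the lateral lobe. Beside those shares, a single call in so short a list says little. Of 7 adipocyte genes 2 fell in the ventral comparison and 1 in the lateral one. Of 9 leukocyte genes 1 rose in the ventral lobe and 0 were called in the lateral lobe, and of 6 nerve genes 1 rose in the ventral and 1 fell in the lateral lobe. Low signal was found for Adipoq in all 4 groups, for Lep in all but WT_VP and for Cidec in KO_VP among adipocyte genes. Among leukocyte genes it was found for Itgam in all 4 groups and for Adgre1 in KO_LP and WT_LP, and among nerve genes for Cdh19 in WT_VP. The 6 seminal vesicle genes, 5 of them at low signal in ventral arrays, had 0 called in the ventral lobe and 4 lower in the lateral lobe, with sums of 1703 to 9236 in KO_LP arrays, against 38920 to 41100 in WT_LP arrays. Of 7 ventral secretory genes 6 fell in the ventral lobe, with sums of 30020 to 31840 in KO_VP arrays, against 47770 to 53430 in WT_VP arrays, and 0 were called in the lateral lobe. Among these 7, Pate14 had low signal in KO_VP. Behind these counts of 0, an unadjusted p was under 0.05 for 2 leukocyte genes and for none of the seminal vesicle or secretory genes. The part of these differences in the matrix results was not tested.

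**Figure D4:**
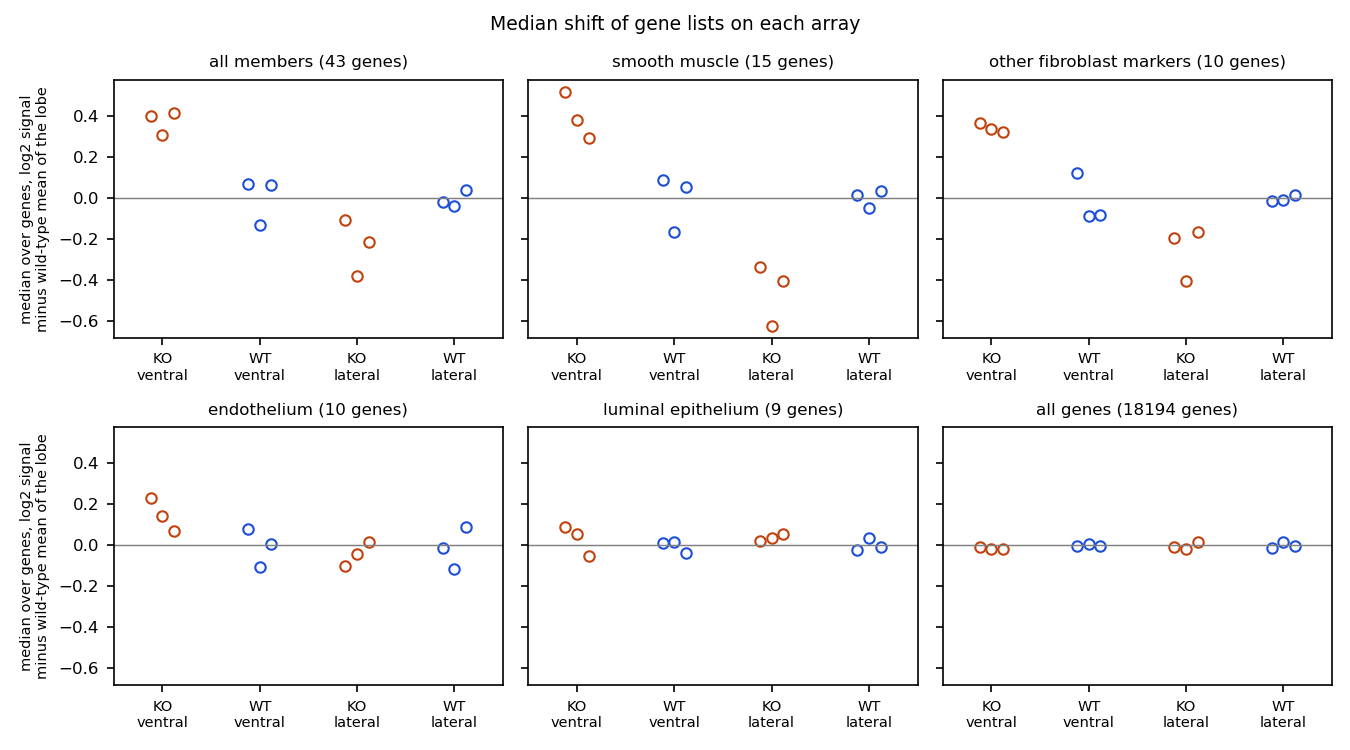
Median over the genes of a list of the log2 signal on each array minus the wild-type mean of the lobe, for the 43 matrix genes, markers of 4 cell types and all 18194 genes; red is knockout, blue wild type and each circle 1 array. For the matrix genes the KO_VP arrays lie at 0.31 to 0.41 and the KO_LP arrays at -0.38 to -0.11, smooth muscle and other fibroblast markers part the same way, and luminal epithelium and all genes stay near 0. Endothelial markers lie at 0.067 to 0.23 in KO_VP arrays, overlapping WT_VP arrays, and at -0.10 to 0.017 in KO_LP arrays.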

How the data were processed

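Ventral and lateral prostate were profiled on 12 Affymetrix arrays, 3 for each genotype and lobe, grouped by their titles. The deposited values are log2 signals per probe set, made by the authors with RMA in Affymetrix Expression Console, per the submitters' processing notes, versions not given there. RMA subtracts background, quantile-normalizes and summarises probes, so values are relative to the arrays normalized together. Sorted values differed by a median of 0.0493 log2 units among ventral, 0.0786 among lateral and 0.388 among all 12 arrays, so levels set across lobes carry the normalization as well.

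Of 45101 probe sets, 34958 had 1 gene symbol in the platform annotation, 932 several and 9211 none. Of those with 1 symbol, 34754 were matched to RefSeq through Entrez identifiers and took the RefSeq symbol, changed or not. The brightest probe set over the 12 arrays stood for each of 18194 genes. Of these genes 9012 had more than 1 probe set. In limma 3.58.1 (R 4.3.3), 4 group means were fitted over 12 arrays, with 8 residual and 5.68 prior degrees of freedom, empirical Bayes variances, 2-sided tests and Benjamini-Hochberg adjustment over all genes at 0.05. The number of arrays limits the precision. The scripts were tested on simulated data.

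The genes and lists were chosen with earlier results of these data known. All measured genes of the set are described, and from each pathway list up to 4 genes with the smallest p in a lobe among those called in it. Low signal, a group mean under the 25th percentile of all probe sets (4.731 ventral, 4.519 lateral), was marked by a rule chosen after seeing the data. RefSeq promoter windows were matched by symbol. Alternatives were the 6 arrays of a comparison alone, a replicate block, quantile normalization over 12 arrays, median centring, leaving out the dimmest 40% of genes, the mean of probe sets, each probe set on its own, an intensity trend with robust variance, thresholds of 0.01 and 0.1, and leaving out each array. Leaving out WT_VP replicate 3 and KO_LP replicate 3 together was added after seeing the data.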

Additional observations from a re-analysis of the deposited data

Results flagged for a closer look

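For 25 of the 43 matrix genes limma's test of the difference between the genotype effects of the lobes, ventral minus lateral, had an adjusted p under 0.05. Over all genes 6.51% were called positive and 2.80% negative. The values that follow are those of the 25 matrix genes. The difference was 1.71 for Lum, 1.41 for Pdgfra, 1.30 for Col12a1, 1.23 for Ogn, 1.09 for Postn, 1.04 for Col1a2, 1.02 for Col4a2, 1.01 for Col5a2 and 1.00 for Col6a1. It was 0.96 for Col6a2, 0.89 for Fbln1, 0.87 for Fn1, 0.83 for Col4a5, 0.80 for Fmod, 0.80 for Mfap4, 0.76 for Thbs2, 0.73 for Npnt, 0.71 for Bgn and 0.70 for Col3a1. For Tnc it was 0.60, for Col5a1 0.59, for Sparc 0.48 and for Col18a1 0.43. It was negative for Col4a6, at -1.005, and for Col6a3, at -0.59. For Thbs2 the lateral effect behind the difference rests on low signal in KO_LP arrays.

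The call was kept by 17 of the 25 genes with each of the 12 arrays left out. It was lost for Sparc without any array but KO_LP replicate 1, for Mfap4 without any but KO_VP replicate 2 and KO_LP replicate 1, and for Col6a2 without KO_LP replicate 2 (limma adjusted p = 0.0519). For Col18a1, Thbs2 and Tnc it was lost without any of 9 arrays: all but KO_VP replicate 2, KO_LP replicate 1 and KO_LP replicate 2 for Col18a1, all but WT_VP replicate 1, KO_VP replicate 2 and KO_LP replicate 1 for Thbs2, and all but WT_VP replicate 1, KO_VP replicate 3 and WT_LP replicate 1 for Tnc. Npnt lost it without WT_VP replicate 1 or 3, KO_VP replicate 3, WT_LP replicate 1 or 3, or KO_LP replicate 2 or 3. Col6a3 lost it without WT_VP replicate 1 or 2, KO_VP replicate 2, WT_LP replicate 2 or KO_LP replicate 1.

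As the mean of all probe sets of a gene the call was lost for Col5a1 (0.090, limma adjusted p = 0.673), Tnc (0.17, 0.344), Npnt (0.24, 0.163), Thbs2 (0.40, 0.112), Sparc (0.34, 0.162) and Col4a6 (-0.64, 0.140). Only 1 of 3 Col5a1 probe sets had a positive difference. Without WT_VP replicate 3 and KO_LP replicate 3 together the calls of Col5a1 and Col6a3 were lost as well (0.0543 and 0.0558), beside those of Col18a1, Mfap4, Npnt, Sparc, Thbs2 and Tnc. A replicate block ended those of Col18a1, Sparc and Thbs2, and quantile normalization over 12 arrays those of Col18a1, Mfap4, Npnt, Sparc and Tnc.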

How the results depend on the processing

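The ventral count of 20 higher genes ran between 11 and 21 with 1 array left out, was 13 without WT_VP replicate 3 and KO_LP replicate 3 together and 10 at an adjusted p under 0.01. The lateral count of 9 lower genes ran between 3 and 9 with 1 array left out, was 5 without that pair and 3 at 0.01, and the lateral count of 1 higher gene was 2 with the mean of probe sets. The count of 23 positive differences between the lobes' effects was 13 at 0.01. The count of 2 negative ones was 1 in 5 of the 12 omissions of 1 array (KO_LP replicate 1, KO_VP replicate 2, WT_LP replicate 2, WT_VP replicate 1 or 2; range 1 to 2), 1 without the pair, 1 with the mean of probe sets and 0 at 0.01. The wild-type count of 14 genes higher in the ventral lobe was 6 with quantile normalization over 12 arrays and 8 with median centring. Over all genes, the ventral counts of 1069 higher and 583 lower were 648 and 317 with the 6 ventral arrays alone, 660 and 373 without WT_VP replicate 1, 614 and 327 without WT_VP replicate 3, 567 and 293 without the pair, 443 and 223 at 0.01, and 695 higher without KO_VP replicate 3 and 1105 lower at 0.1. The lateral 294 higher and 622 lower were 180 and 408 without WT_LP replicate 2, 152 and 347 with WT_LP replicate 3 left out, 167 and 346 with KO_LP replicate 2 left out, 169 and 414 without the pair, 103 and 293 at 0.01 and 547 and 962 at 0.1, with 189 and 177 higher without WT_LP replicate 1 or KO_LP replicate 3. For the difference of effects 1184 positive and 509 negative calls were 733 and 240 without the pair and 568 and 155 at 0.01, with 319 and 291 negative without WT_VP replicate 3 or WT_LP replicate 3 and 1014 at 0.1. Between wild-type lobes 10144 higher and 2240 lower were 4673 and 5770 with quantile normalization and 5250 and 5574 with centring, and 1167 lower with the dimmest 40% left out. Ventral Med1 was between -0.64 and -0.48 with 1 array left out, and its call was lost without KO_VP replicate 3 (limma adjusted p = 0.0518).

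With a replicate block the counts were 19 higher and 2 lower in the ventral lobe, 1 and 8 in the lateral lobe, 20 and 2 for the difference of effects and 15 and 19 between wild-type lobes. Deviations of same-numbered arrays correlated between -0.061 and 0.116, and those of differently numbered arrays between -0.083 and 0.0545. With 3 arrays per group these values cannot show whether same-numbered arrays share an origin, and the labels do not state it.

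Some directions were reversed. With the mean of probe sets Col8a1 was at 0.68 in the ventral lobe and 0.88 for the difference of effects, and Col1a2 was at 0.38 between wild-type lobes. Between wild-type lobes quantile normalization gave -0.28 for Col3a1, -0.53 for Bgn, -0.47 for Fmod, -0.40 for Vcan, -0.033 for Fbln1, -0.36 for Sparc, -0.11 for Pdgfra and -0.16 for Pdgfrb. Median centring gave -0.083 for Col3a1, -0.34 for Bgn, -0.023 for Pdgfra and -0.074 for Pdgfrb. The cause was not tested. Of 3549 values under alternatives 228 lost their call, 52 gained one and 15 were reversed, and 3254 did not change call, 73 of these with another sign and no call either way.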
